A study of Homo sapiens and Mus musculus with 17 samples.

Results

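The mitochondrial ribosomal protein genes were taken as every gene whose symbol, in upper case, is MRPL or MRPS followed by a number and at most 1 letter from A to D, where MRPL stands for the large and MRPS for the small subunit of the mitochondrial ribosome. The rule found 78 of 62714 genes in human HEK293T cells and the same 78 symbols among 55491 genes in mouse brown adipose tissue (BAT), 49 MRPL and 29 MRPS in each. The rule used names only and no measured value. RNA was sequenced from 17 libraries to measure transcript levels in cells and tissue without SEL1L or HRD1, the adaptor and the ubiquitin ligase of a complex that removes misfolded proteins from the endoplasmic reticulum (ER-associated degradation). HEK293T is an established human embryonic kidney line, and its 9 libraries were 3 WT (transfected with an empty plasmid that carried no guide), 3 HRD1 KO and 3 SEL1L KO, each KO made by CRISPR/Cas9 with 1 guide. The 8 BAT libraries came from 12-week-old B6 mice, namely 3 wild type, 2 Hrd1 flox/flox; Ucp1-Cre (Hrd1 KO) and 3 Sel1l flox/flox; Ucp1-Cre (Sel1L KO). The Ucp1 promoter drives Cre in brown adipocytes, so the other cells of the tissue keep the floxed gene, and a lower level in tissue cannot tell fewer brown adipocytes from less RNA in each of them.

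The mitochondrial ribosome makes the proteins that mitochondrial DNA encodes, which are core subunits of the respiratory chain and of ATP synthase. Its RNAs come from mitochondrial DNA, whereas all of its proteins are encoded in the nucleus, made in the cytosol and imported. By their systematic names, 46 of the 78 are classed as having a bacterial counterpart and 31 as specific to mitochondria. MRPS18A and MRPS18B fall in the latter class, though related to the same bacterial protein as MRPS18C. Brown fat, which burns fuel in mitochondria to make heat, needs much of this machinery. Not every symbol names a part of the expected subunit: the products of MRPS18A and MRPS30 sit in the large subunit, and that of MRPS36 is a component of the oxoglutarate dehydrogenase complex.

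The targeted genes were checked first, in the deposited unit FPKM, which counts fragments by transcript length and by the size of the library. SEL1L was 4.39, 8.74 and 12.9 in WT HEK293T and 1.82, 3.36 and 2.59 in SEL1L KO. SYVN1, which encodes HRD1, was 16.95, 16.7 and 16.9 in WT, against 22.5, 18.5 and 19.8 where the label was HRD1 KO. In BAT, Syvn1 was 5.37, 5.65 and 5.2 in WT, against 14.1 and 13.8 where the label was Hrd1 KO, and Sel1l was 9.1, 12.9 and 10.3 in WT, against 25.2, 8.17 and 8.38 where it was Sel1L KO. Only SEL1L in SEL1L KO HEK293T was lower in every library than in every WT library. The other groups are given by their labels, as this check covers RNA only. For HEK293T the paper also checked KO cells by immunoblot, which measures protein. Sel1l was 57.6 and 65.2 in Hrd1 KO BAT, above every WT library, while SEL1L in HRD1 KO HEK293T overlapped WT. As background, a small edit need not lower the RNA of a gene. Library 1 labelled Sel1L KO stood apart from the other BAT libraries: it had Syvn1 at 118 and Ppargc1a at 387, which were at most 16.6 and 14.4 elsewhere. Markers of each sample were present (5 of 5 HEK293T markers and 10 of 10 brown adipocyte markers). PTPRC and ADIPOQ, of blood cells and fat, were at 0 in all HEK293T libraries. ALB, also expected to be absent, reached 0.61 FPKM in WT and 0.23 in SEL1L KO.

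Some human promoters of these genes hold the same short motifs, and 3 of them are shown for the motifs they hold. RefSeq sequences (GRCh38.p14) gave 85 windows of 300 bases (250 before and 50 after a transcript start) for 69 of the 78 genes, with none for MRPL10, MRPL13, MRPL15, MRPL2, MRPL21, MRPL23, MRPL35, MRPS28 and MRPS36. The letters CCGGAAG, which ETS-family factors such as GABP bind, stood on either strand in 33 of 85 windows (38.8%, 30 genes), against 10.3% of all 35116 windows and 16.6% of the 15884 windows of genes tested in HEK293T. Counting a site that lies in 2 overlapping windows once, there were 40 sites, of which 28 lay within 50 bases of a start. The letters GCGCA, any base and GCGC, bound by NRF1, a regulator of nuclear genes for mitochondrial proteins, were in 10 windows (11.8%), against 5.78% of all windows and 9.98% of those of tested genes. TGACGTCA, bound by CREB and ATF factors, was in 1 window (1.18%, against 1.85% of all), and the ER stress element, CCAAT and CCACG with 9 bases between, was in 0 (0.0769% of all). Each motif was searched on both strands, and a motif that was not found says nothing of the factor. The 250 bases before the start are shown 5′ to 3′, with matches in capitals. MRPL20 and MRPS21 hold the ETS letters (as CTTCCGG where they lie on the other strand), and MRPL17 holds the NRF1 letters. A match is a description of the letters and not of binding.
MRPL20, chr1:1407294-1407543, - strand: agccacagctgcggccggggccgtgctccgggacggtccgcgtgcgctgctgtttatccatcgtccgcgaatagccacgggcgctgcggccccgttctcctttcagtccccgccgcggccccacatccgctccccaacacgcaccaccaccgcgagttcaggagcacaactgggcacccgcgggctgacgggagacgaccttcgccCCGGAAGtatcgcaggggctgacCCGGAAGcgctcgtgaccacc
MRPS21, chr1:150293611-150293860, + strand: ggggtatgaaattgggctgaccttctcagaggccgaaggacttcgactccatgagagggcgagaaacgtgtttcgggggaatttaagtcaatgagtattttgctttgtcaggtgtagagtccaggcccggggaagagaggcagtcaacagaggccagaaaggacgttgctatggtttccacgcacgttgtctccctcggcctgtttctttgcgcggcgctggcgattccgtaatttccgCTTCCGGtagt
MRPL17, chr11:6683341-6683590, - strand: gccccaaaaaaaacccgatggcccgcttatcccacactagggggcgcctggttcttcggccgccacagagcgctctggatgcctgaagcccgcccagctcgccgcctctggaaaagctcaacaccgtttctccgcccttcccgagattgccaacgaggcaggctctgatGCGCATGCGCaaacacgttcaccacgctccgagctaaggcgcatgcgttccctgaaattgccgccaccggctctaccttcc

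The genes were dispersed over 21 human and 17 mouse chromosomes. Their merged exons were short, with a median length of 2544 bases against 5371.5 for tested protein-coding genes in human. In mouse it was 2394 against 4440.5, and the span of the genes with introns was not compared. A protein-coding neighbour on the opposite strand started at most 1000 bases upstream of 17 of 78 human members (21.8%, against 11.5% of tested coding genes). This held for 18 mouse members (23.1%, against 10.8%). Pairs whose starts overlap head to head were not counted, such as mouse Mrps11 and Mrpl46. One human pair starts back to back: MRPS11 (GRCh38 chr15:88467453-88480776, + strand) and MRPL46 (chr15:88459477-88467390, − strand) begin 63 bases apart, and both are members, 1 of each subunit. Another gene overlapped 49 human and 42 mouse members, on the opposite strand for 40 and 36, and whether reads were assigned by strand is not given in the sources used here. The human table also held 81 rows for pseudogenes of 36 members, of which 3 had a WT mean of at least 1 FPKM and the highest, MRPL45P2, had 6.93. The mouse table held 6 such rows, and the highest, Mrpl23-ps1, had 9.95, so that the level of Mrpl23 is uncertain.

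All 78 genes passed the filter on low values, which asked for 1 FPKM or more in 3 HEK293T or 2 BAT libraries, in both files, and each had a WT mean above the median of the genes tested. In WT HEK293T the median over members of the mean FPKM was 71.5, against 10.6 over 15796 genes tested, and the median was 85.9 for MRPL and 59.6 for MRPS. In WT BAT it was 65.02, against 6.29 over 12473 genes, with 65.7 for MRPL and 52.3 for MRPS. Members also varied less between WT replicates than genes in general. The median coefficient of variation was 13.6% against 23.2% in HEK293T and 7.49% against 14.5% in BAT. Genes of a like level were not compared, so this cannot be told apart from the higher level of the members.

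Levels of single members spanned 41.0-fold in HEK293T and 46.4-fold in BAT. In HEK293T the highest WT means were those of MRPS34 (437 ± 63.3 FPKM, SD, n = 3), MRPL23 (292 ± 17.6) and MRPL55 (277 ± 103), so that MRPL23 and MRPL55 did not differ beyond their spread. The lowest were MRPL50 (10.7 ± 1.47), MRPS36 (17.3 ± 2.57) and MRPL57 (22.3 ± 3.39). In BAT the highest were Mrpl42 (406 ± 17.8), Mrpl34 (338 ± 41.0) and Mrps21 (317 ± 21.4), of which Mrpl34 and Mrps21 lay within their spread of each other. Mrpl19 (8.75 ± 1.84), Mrps30 (13.2 ± 0.769) and Mrpl1 (14.7 ± 0.747) were lowest.

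The files were normalized separately, so only ranks among the 78 were set side by side. The ranks had a Spearman correlation of 0.516 over 78 genes, a description across genes that share libraries, and 24 genes stood within 10 ranks of each other. MRPS36, of the oxoglutarate dehydrogenase complex, went from rank 77 in HEK293T to rank 4 in BAT, where it had 192, 198 and 208 FPKM in the WT libraries. MRPL30, a large-subunit protein with a bacterial counterpart, went from rank 57 to rank 5. The human gene overlaps 2 others on the same strand and the mouse gene none, so its ranks may also differ by how reads were assigned. Species and tissue differed together between the files. MRPS26, a small-subunit protein specific to mitochondria, went the other way, from rank 4 to rank 54. The lists of the 10 highest shared 2 genes and those of the 10 lowest shared 5.

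**Figure D1:**
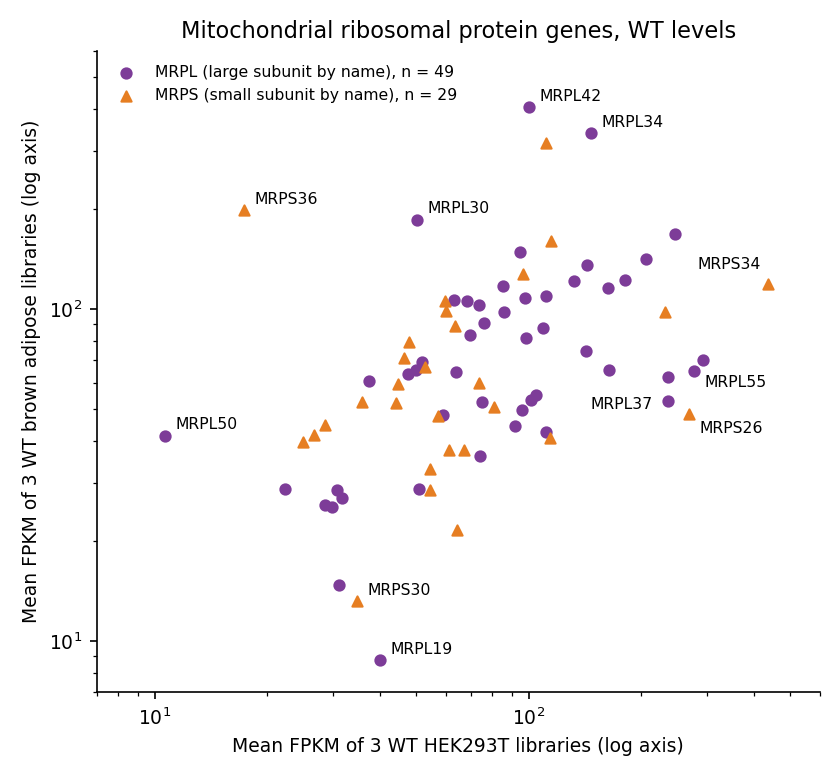
Mean FPKM of the 3 WT HEK293T libraries (x, log axis) against that of the 3 WT BAT libraries (y, log axis) for 78 genes, MRPL in circles and MRPS in triangles. MRPS36 stands at the upper left, at 17.3 in HEK293T and 199 in BAT, whereas MRPS34 is furthest right at 437.

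The summed FPKM of the 78 genes, MRPS36 included, is a relative measure in each library and not an amount of RNA. In HEK293T it was 7416, 7207 and 7768 FPKM in WT, 9274, 6958 and 7329.5 in HRD1 KO and 8393, 7321 and 7583 in SEL1L KO. The groups overlapped, and library 1 labelled HRD1 KO was highest. The sum was 0.786% to 0.919% of all FPKM, and MRPL genes had 1.95 to 2.11 times the summed level of MRPS genes. In BAT the sum was 6391, 6805 and 6434 in WT, 5756 and 7024 for Hrd1 KO and 5330.1, 6629 and 6436 for Sel1L KO, again with overlap. As a share of all FPKM it was 0.476% to 0.504% in WT, 0.502% and 0.641% for Hrd1 KO and 0.436% to 0.509% for Sel1L KO. The ratio of the MRPL to the MRPS sum was 1.82 to 1.997 in BAT.

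**Figure D2:**
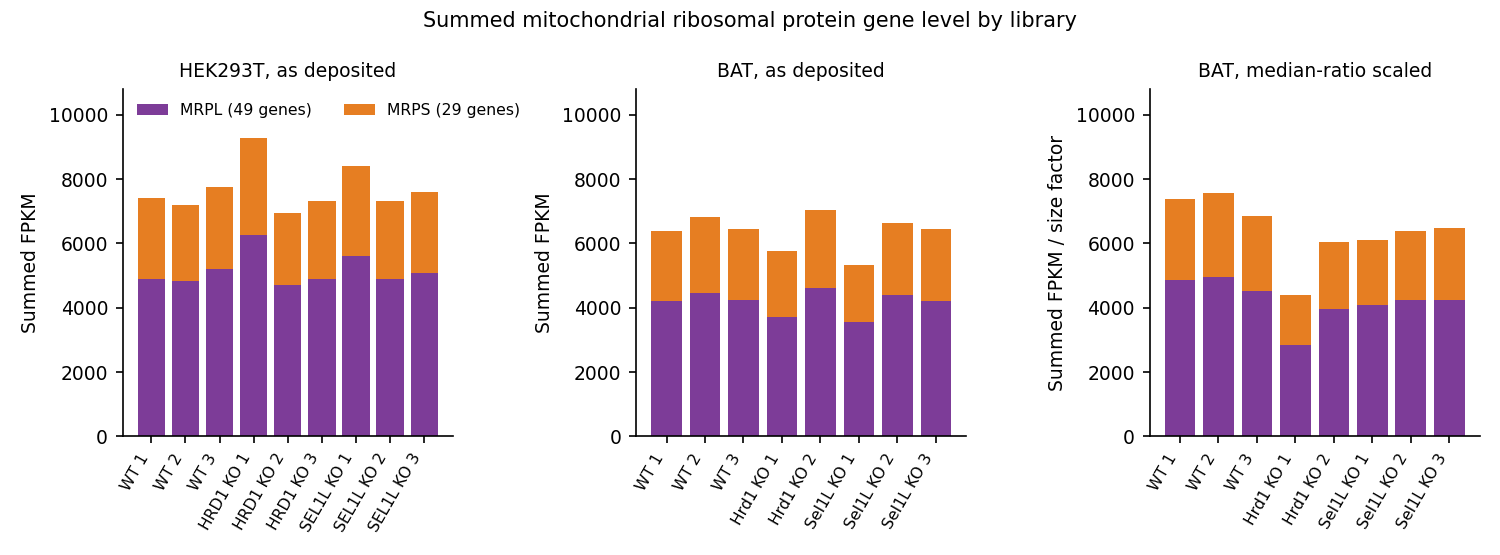
Summed level of the MRPL (purple) and MRPS (orange) genes in each library, in FPKM as deposited for HEK293T and BAT and after median-ratio scaling for BAT (FPKM divided by a size factor). The groups overlap as deposited, whereas after scaling the libraries labelled Hrd1 KO (4397 and 6052) lie below the WT libraries (6836.5 to 7556).

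Do these genes change when HRD1 or SEL1L is targeted in HEK293T? None of the 78 was called between HRD1 KO and WT by limma's moderated test on log2(FPKM + 0.1) at a Benjamini-Hochberg adjusted p under 0.05 (smallest adjusted p 1.00), beside 0.0570% of all genes called higher and 0% lower. The members with an unadjusted p under 0.05 numbered 2 on the higher and 0 on the lower side, beside 0.943% and 1.06% of all genes. The median log2 difference of the members was 0.05, against −0.05 over all genes, and 52 of 78 were above 0. Between SEL1L KO and WT 0 were called as well (smallest adjusted p 1.00), beside 0.0317% higher and 0% lower. At the unadjusted threshold 1 was higher and 0 lower, beside 0.715% and 0.779%. The median was 0.07 against −0.06, with 56 of 78 above 0. In each of these comparisons 15 of 78 members lay below the all-gene median. The median standard error of a single member's difference was 0.20.

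The members furthest from 0 were a few proteins of both subunits. MRPS33, a small-subunit protein specific to mitochondria, was at 70.5, 61.9 and 46.5 FPKM in WT, at 98.5, 66.0 and 98.3 in HRD1 KO and at 87.5, 71.3 and 77.4 in SEL1L KO. Its levels in SEL1L KO lay above all WT levels, and 1 library labelled HRD1 KO overlapped WT. The log2 difference of MRPS33 was 0.55 ± 0.22 (SE) for HRD1 KO (limma, unadjusted p = 0.0329) and 0.42 ± 0.22 for SEL1L KO (limma, unadjusted p = 0.0907).

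MRPL2, the counterpart of a bacterial protein near the peptidyl transferase centre, was at 85.5, 86.5 and 83.7 in WT, 122, 101 and 106 in HRD1 KO and 100.1, 98.2 and 83.2 in SEL1L KO. All 3 libraries labelled HRD1 KO lay above WT, and MRPL2 was the 1 member that did not overlap in that direction (1.96% of all genes; 0 members and 3.04% lower). Its log2 difference was 0.36 ± 0.16 (limma, unadjusted p = 0.0448).

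MRPL46, the large-subunit gene that shares its start region with MRPS11, was at 40.8, 45.5 and 56.3 in WT, 64.3, 47.0 and 56.3 in HRD1 KO and 65.5, 60.5 and 64.2 in SEL1L KO. All 3 SEL1L KO libraries were above WT, with a log2 difference of 0.43 ± 0.19 (limma, unadjusted p = 0.0458). MRPL46 also overlaps another annotated gene on the same strand, so that reads of both may have been shared. MRPS11, on the other side of the same start region, was at 52.8, 53.8 and 56.4 in WT and at 59.6, 44.7 and 43.9 in SEL1L KO. Its difference was −0.15 with overlapping groups, so that MRPL46 and MRPS11 had opposite signs for SEL1L KO, while for HRD1 KO they were at 0.23 and 0.07. In SEL1L KO 5 members did not overlap WT on the higher side (MRPL46, MRPS33, MRPS30, MRPS22 and MRPL30) beside 2.41% of all genes, and 0 on the lower side beside 3.72%.

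Other members named by rule showed smaller differences. For HRD1 KO the next highest were MRPL21 (0.29), MRPL46 (0.23) and MRPL41 (0.22), and the lowest were MRPS25 (−0.25), MRPS31 (−0.21), MRPL36 (−0.13), MRPS17 (−0.12) and MRPS16 (−0.09). For SEL1L KO they were MRPL12 (0.29), a protein of the ribosomal stalk, with MRPS17 (0.26) and MRPS30 (0.26), and MRPS6 (−0.26), MRPL39 (−0.23), MRPL17 (−0.18) and MRPS25 (−0.14). All of these overlapped WT except MRPS30. The 3 paralogs MRPS18A, MRPS18B and MRPS18C, related to 1 bacterial protein, differed by 0.20, 0.13 and 0.05 for HRD1 KO and by 0.06, 0.20 and −0.08 for SEL1L KO. The large-subunit gene MRPL37 was at 252, 224 and 229.8 in WT, 295, 236 and 215 in HRD1 KO and 243, 217 and 212 in SEL1L KO, with differences of 0.07 and −0.07.

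Some members followed the replicate number more than the genotype. MRPL55 was at 312, 359 and 162 FPKM in WT libraries 1, 2 and 3, at 370.0, 293 and 142 in HRD1 KO and at 324, 301 and 156 in SEL1L KO. Library 3 of each group was thus the lowest. MRPL49, picked after its values were seen, ran the opposite way, with 42.1, 47.0 and 63.8 in WT, 45.7, 49.4 and 64.7 in HRD1 KO and 42.7, 47.6 and 65.6 in SEL1L KO, and library 3 was highest in each. With the number as a block, 0 members were still called at the adjusted threshold (limma, smallest adjusted p = 0.659 for HRD1 KO and 0.864 for SEL1L KO), while 0.152% of all genes were called higher and 0.00633% lower for HRD1 KO, and 0.0760% higher and 0% lower for SEL1L KO. At the unadjusted threshold the block gave 2 members higher and 0 lower for HRD1 KO, beside 2.56% and 3.56% of all genes. For SEL1L KO it also gave 2 higher and 0 lower, beside 2.01% and 3.52%, namely MRPL46 (limma, unadjusted p = 0.0232) and MRPS33 (limma, unadjusted p = 0.0428).

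**Figure D3:**
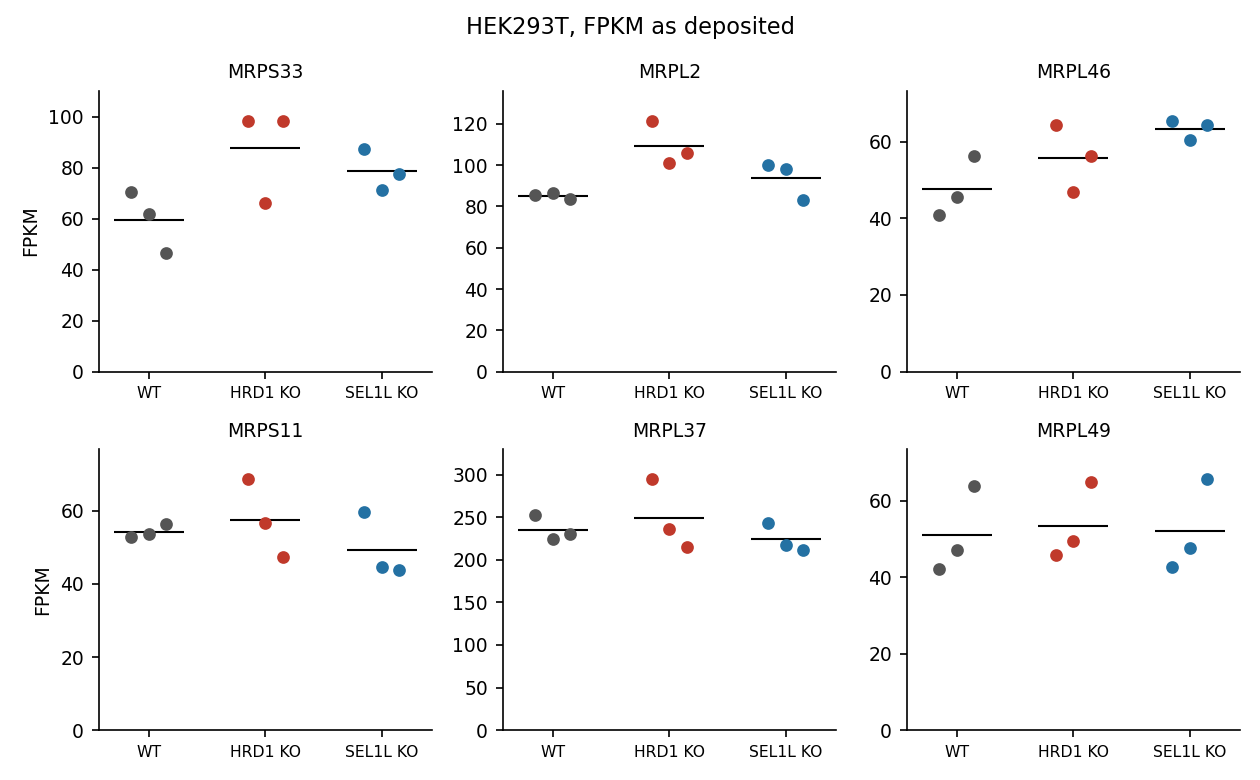
FPKM as deposited of 6 genes in the 9 HEK293T libraries, 1 point per library with replicates 1 to 3 from left to right and a line at the group mean. MRPL2 was 101 or more in HRD1 KO and at most 86.5 in WT, whereas library 3 is the highest of each group for MRPL49.

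HRD1 KO and SEL1L KO differed from each other in 0 members (limma, smallest adjusted p = 1.00; 0% of all genes), and the unadjusted threshold gave 0 members in either direction (1.18% of all genes higher and 1.16% lower). Groups did not overlap for 1 higher member, MRPL2 (0.22, beside 2.67%), and 1 lower, MRPL36 (−0.30, beside 2.51%). With the block 0 were called at the adjusted threshold, beside 0.00633% of all genes in each direction (limma, smallest adjusted p = 0.627), and at the unadjusted one 0 were higher and 1 lower, beside 3.97% and 3.50%. The lower one was MRPL36, a short large-subunit protein with a bacterial counterpart (limma, unadjusted p = 0.0346). Single libraries decided the unadjusted counts of higher members. That for HRD1 KO was 0 without WT library 2, WT library 3 or library 1 or 3 labelled HRD1 KO, beside 0.816% to 1.62% of all genes. That for SEL1L KO was 0 without WT library 1 or 2, library 3 labelled HRD1 KO or any of the 3 libraries labelled SEL1L KO. The shares of all genes there were 0.513% to 0.994%. Without library 3 labelled SEL1L KO 1 member was lower, beside 1.32% of all genes. Between the KO groups 3 members were lower without library 1 labelled HRD1 KO, beside 2.12% of all genes.

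In BAT the result turned on how libraries were set on a common scale. As deposited, the median gene was 0.42 (log2) higher for Hrd1 KO than for WT. Median-ratio scaling divides each library by a size factor, the median over genes of its ratio to the mean library. The factors were 1.31 and 1.16 for Hrd1 KO, 0.871 to 1.04 for Sel1L KO and 0.865 to 0.941 for WT, and after scaling the median gene stood at −0.02. Values are therefore given on both scales.

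As deposited, the ribosomal protein genes stayed near the WT level for Hrd1 KO. None of 78 was called by limma at an adjusted p under 0.01, beside 0.289% of all genes higher and 0.0802% lower, and the smallest adjusted p was 0.0352 (Mrps6). The unadjusted threshold of 0.05 gave 3 higher and 1 lower, beside 25.4% and 2.02% of all genes. These became 1 and 4 without library 2 labelled Hrd1 KO (19.5% and 2.66% of all genes), 4 and 5 without library 1 labelled Sel1L KO (39.1% and 3.68%), and 1 and 1 without WT library 1 (18.3% and 1.67%) or 3 (20.8% and 1.5%). Groups did not overlap for 9 higher and 7 lower members, beside 51.1% and 5.79%. The median difference of the members was −0.03 against 0.42 over all genes, and 75 of 78 lay below the all-gene median. After scaling 0 were called (smallest adjusted p 0.0432), beside 0% higher and 0.0401% lower, but at the unadjusted threshold 0 were higher and 37 lower (26 MRPL and 11 MRPS), beside 7.36% and 10.8%. The groups then did not overlap for 1 higher and 54 lower members, beside 21.1% and 23.7%, and the median was −0.48 against −0.02, with −0.51 for MRPL and −0.39 for MRPS. On that scale 76 of 78 members were below 0. Scaling to equal sums of the nuclear genes, tried after seeing the data, gave the opposite sign to the median, 0.06 against 0.51, with 6 members higher and 1 lower at the unadjusted threshold, beside 31.2% and 1.55% of all genes. The member median lay below the all-gene median on each scale tried, quantile normalization included (−0.26 against −0.02), while its own sign depended on the scale. No test compared the members with other genes.

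The 2 libraries labelled Hrd1 KO did not weigh alike. Their summed scaled levels were 4397 and 6052, against 7392, 7556 and 6836.5 in WT. Without library 1 the scaled median was −0.21, with 10 members lower and 1 higher at the unadjusted threshold, beside 6.49% and 4.97% of all genes. Without library 2 it was −0.68, with 56 lower, beside 11.6%. Without WT library 1, 2 or 3 the number lower was 21, 20 and 31, beside 7.68%, 7.80% and 8.22% of all genes, and without library 1, 2 or 3 labelled Sel1L KO it was 44, 29 and 34, beside 16.6%, 9.81% and 10.1%. Marker sums of other cell types were taken as deposited only, where the median gene was also higher for Hrd1 KO. The 6 macrophage genes summed to 38.0 to 50.6 FPKM in WT and 78.1 to 84.7 for Hrd1 KO. The 4 fibroblast genes summed to 56.6 to 81.0 and 114 to 134, and the 4 endothelial genes to 62.8 to 85.3 and 104 to 135. The 6 skeletal muscle genes summed to 1.17 to 3.08 and 10.8 to 308, and the 2 white adipocyte genes to 31.9 to 53.6 and 121 to 134. The 2 red cell genes summed to 489 to 792 and 788 to 984, with overlap. The 10 brown adipocyte markers summed to 27158 to 30959 in WT and 20089 to 26426 for Hrd1 KO, and the 4 B and T cell markers summed to 1.5 or less in every library. Mitochondrially encoded genes took 44.3% to 45.5% of all FPKM in WT, 41.3% and 34.4% for Hrd1 KO and 41.7% to 45.0% for Sel1L KO. Whether the cell type markers have a part in the result was not tested, and with the mitochondrially encoded genes left out of the total, as given above, the all-gene median was 0.51.

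**Figure D4:**
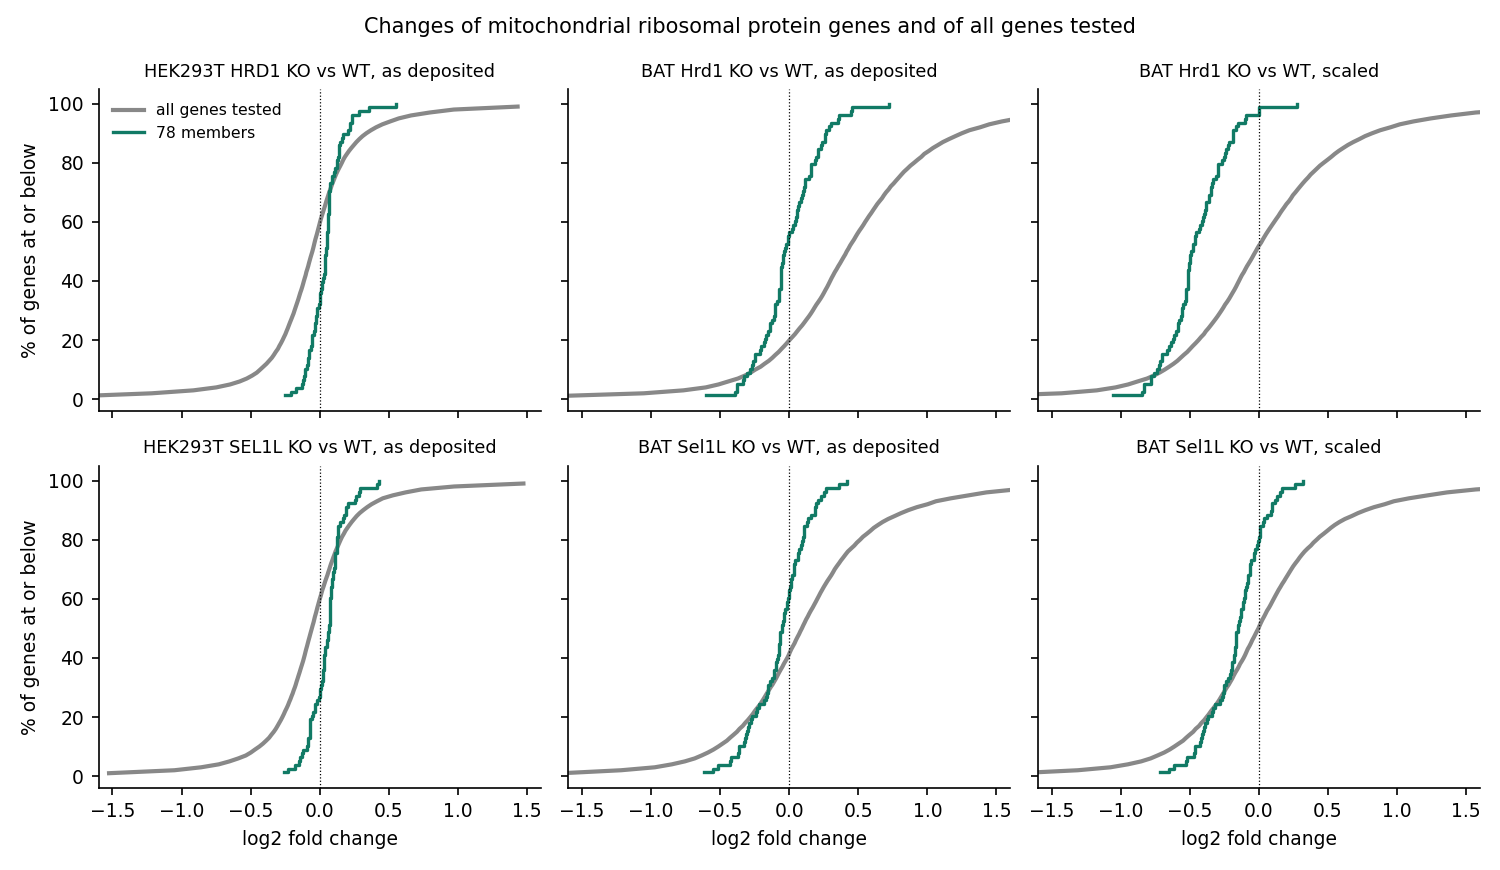
Cumulative share of genes (y, %) by log2 difference from WT (x) for 78 members (green) and all genes tested (grey, drawn by percentile), with HEK293T on the left, BAT as deposited in the middle and BAT after median-ratio scaling on the right. The member curve for Hrd1 KO is centred at −0.03 as deposited and at −0.48 after scaling, and lies left of the grey curve on both scales except at its lowest values.

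Mrpl16, the large-subunit counterpart of a bacterial protein that lies close to the tRNA sites, had the lowest difference for Hrd1 KO on both scales. It was at 52.3, 62.0 and 50.8 FPKM in WT, 35.0 and 37.1 in Hrd1 KO and 32.9, 37.5 and 42.5 in Sel1L KO, so that every library of either KO label lay below every WT library. The log2 difference for Hrd1 KO was −0.60 ± 0.17 as deposited (limma, adjusted p = 0.0758) and −1.05 ± 0.18 scaled (limma, adjusted p = 0.0432), and for Sel1L KO −0.55 ± 0.15 (limma, adjusted p = 0.123) and −0.65 ± 0.16 scaled (limma, adjusted p = 0.125).

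Mrps21, a small-subunit protein with a bacterial counterpart and among the 3 most abundant members in BAT, was also below WT under both labels. It was at 293, 328 and 331 in WT, 229.8 and 253 in Hrd1 KO and 189, 255 and 269 in Sel1L KO, with no overlap with WT. The difference for Hrd1 KO was −0.40 ± 0.18 as deposited (limma, adjusted p = 0.190) and −0.85 ± 0.16 scaled (limma, adjusted p = 0.0554), and for Sel1L KO it was −0.43 ± 0.16 (limma, adjusted p = 0.211) and −0.53 ± 0.15 scaled (limma, adjusted p = 0.153). The promoter shown above is that of its human counterpart.

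Mrps6, the small-subunit counterpart of bacterial S6, was the highest for Hrd1 KO. It was at 38.1, 37.8 and 37.2 in WT, 57.6 and 67.6 in Hrd1 KO and 50.8, 49.9 and 44.9 in Sel1L KO, and every KO library lay above WT. The difference was 0.73 ± 0.14 as deposited (limma, adjusted p = 0.0352), short of the threshold, and it passed without library 1 labelled Sel1L KO (limma, adjusted p = 0.00726), a library that enters only through the shared estimate of the spread. After scaling it was 0.28 ± 0.19 (limma, adjusted p = 0.492), at 44.03 and 58.23 for Hrd1 KO against 39.56 to 44.01 in WT, so that the groups all but touched. For Sel1L KO it was 0.36 ± 0.13 (limma, adjusted p = 0.208). The gene (GRCm38 chr16:92058270-92112227, + strand) overlaps Slc5a3, a myo-inositol transporter gene, on the same strand, so that reads of the 2 genes may have been shared.

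The other members named by rule for Hrd1 KO depended on scale. Mrpl17 and Mrpl54 were higher by 0.45 and 0.36 as deposited (limma, unadjusted p = 0.0288 and 0.0304) and differed by −0.00 and −0.09 after scaling. Mrpl23 and Mrps26 were at 0.30 and 0.26 as deposited and at −0.15 and −0.19 after scaling. Mrpl39 (−0.38), Mrpl58 (−0.38), which releases stalled ribosomes, and Mrpl20 (−0.33) were below 0 on both scales, at −0.83, −0.83 and −0.78 after scaling, with Mrpl58 overlapping WT as deposited. Mrps18a, Mrps18b and Mrps18c were at 0.14, 0.26 and −0.17 as deposited and at −0.31, −0.19 and −0.62 after scaling. Mrpl37 was at 48.3, 54.6 and 55.5 FPKM in WT and 43.2 and 59.2 in Hrd1 KO, with a difference of −0.06 as deposited and −0.51 after scaling.

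For Sel1L KO the members differed less from the typical gene. As deposited 0 were called by limma at an adjusted p under 0.01 (smallest adjusted p 0.123), beside 0.0882% of all genes higher and 0.0160% lower. The unadjusted threshold gave 2 higher and 3 lower, beside 12.7% and 5.08%, and leaving out 1 library gave 1 to 3 higher and 1 to 6 lower (1 and 1 without WT library 2, beside 9.55% and 3.65% of all genes, and 3 and 6 without library 3 labelled Sel1L KO, beside 13.5% and 5.69%). In all, 5 higher and 10 lower members did not overlap WT, beside 17.7% and 8.43%. The median was −0.05 against 0.09 over all genes. After scaling 0 were called, beside 0% higher and 0.00802% lower, and 0 were higher and 11 lower at the unadjusted threshold, beside 8.41% and 7.95%. On that scale 3 higher and 28 lower members did not overlap, beside 12.8% and 13.9%, with a median of −0.15 against −0.00. The 11 became 3, 3 and 7 without WT library 1, 2 or 3 (5.32%, 5.72% and 5.62% of all genes). They became 4, 5 and 9 without library 1, 2 or 3 labelled Sel1L KO (10.3%, 6.80% and 8.11%), and 16 without either library labelled Hrd1 KO (8.89% and 8.91%). As deposited, the brown adipocyte sum was 22913 to 26356 in Sel1L KO, wholly below WT. The macrophage sum of 88.1 to 171 and the fibroblast sum of 117.1 to 125 were wholly above WT on that scale. The endothelial sum was 65.1 to 116.9, the muscle sum 0.95 to 55.5, the white adipocyte sum 39.0 to 85.1 and the red cell sum 756 to 1596, all overlapping WT. Their part was not tested.

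Beside Mrpl16 and Mrps21, the members with the lowest moderated t as deposited were Mrpl50, Mrpl37 and Mrps36. Mrpl50 was at 44.1, 44.5 and 36.2 in WT and 26.4, 31.1 and 29.5 in Sel1L KO, without overlap, a difference of −0.52 ± 0.18 (limma, adjusted p = 0.191). Mrpl37 was at 35.0, 43.7 and 44.5 in Sel1L KO, below all WT libraries, with −0.37 (limma, adjusted p = 0.313). Mrps36 was at 110.1, 176 and 170.2 against 192, 198 and 208 in WT, with −0.42 (limma, adjusted p = 0.315). The lowest difference itself was that of Mrpl22, a large-subunit protein with a bacterial counterpart picked after its values were seen, at 68.95, 69.05 and 56.22 in WT and 24.8, 50.84 and 58.88 in Sel1L KO. It was −0.62 ± 0.31 as deposited, with overlap (limma, adjusted p = 0.348), and −0.71 ± 0.29 scaled, without (limma, adjusted p = 0.280), and the low value was in library 1.

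On the higher side stood Mrpl52, a large-subunit protein specific to mitochondria, at 135, 154 and 157 in WT, 171 and 178 in Hrd1 KO and 211, 199.6 and 184 in Sel1L KO. Its difference for Sel1L KO was 0.42 ± 0.12 as deposited (limma, adjusted p = 0.139) and 0.32 ± 0.15 scaled (limma, adjusted p = 0.348). Mrpl17 (0.27), Mrpl23 (0.25) and Mrps18b (0.23) followed, with Mrps18a and Mrps18c at 0.08 and −0.07.

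**Figure D5:**
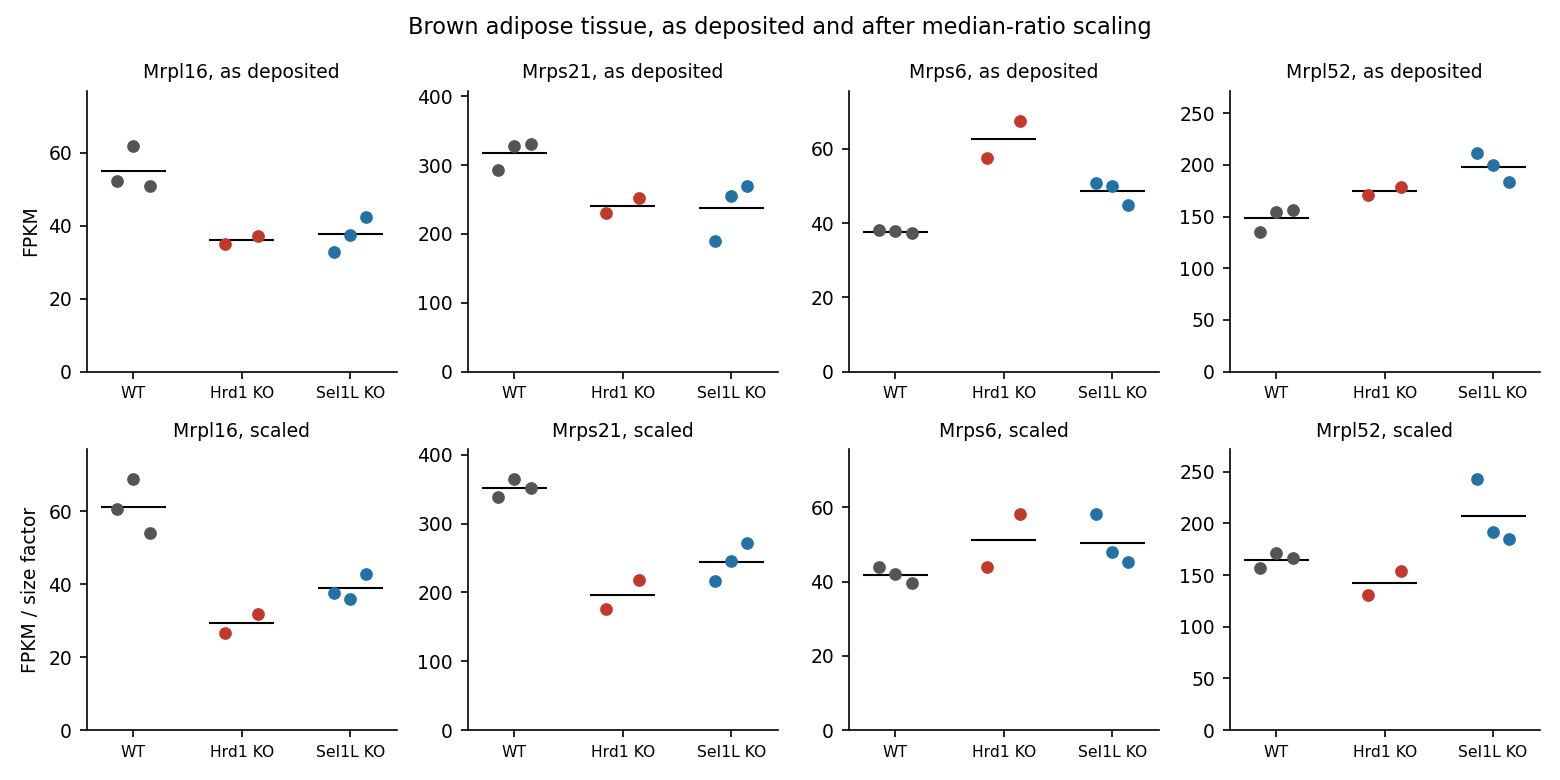
Levels of 4 genes in the 8 BAT libraries, FPKM as deposited above and divided by the size factor below, 1 point per library and a line at the group mean. Mrpl16 and Mrps21 lie below WT in every KO library in both rows, whereas Mrpl52 lies above WT for Hrd1 KO as deposited (171 and 178 against at most 157) and below it after scaling.

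Between Hrd1 KO and Sel1L KO, which share no library, 0 members were called on either scale (limma, smallest adjusted p = 0.246 as deposited and 0.362 scaled), beside 0.00802% of all genes higher and 0.0321% lower in Hrd1 KO on each. As deposited 2 were higher and 0 lower at the unadjusted threshold, beside 15.5% and 1.18%, with 3 higher and 1 lower without overlap, beside 32.5% and 3.37%, and a median of 0.05 against 0.30. The 2 became 6 without library 1 labelled Hrd1 KO (8.37% of all genes) and 0 without library 2 (11.1%). After scaling 0 were higher and 15 lower, beside 4.49% and 5.90%, 0 higher and 29 lower did not overlap, beside 12.6% and 15.3%, and the median was −0.30 against −0.05. Without library 1 labelled Hrd1 KO the 15 became 2 (3.84% of all genes), and without library 2 they became 37 (7.84%). They became 8, 9 and 9 without WT library 1, 2 or 3 (4.57%, 4.36% and 4.31%), and 19, 5 and 6 without library 1, 2 or 3 labelled Sel1L KO (7.52%, 5.66% and 6.33%).

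Mrpl49 and Syvn1 need a separate word, as the gene for HRD1 overlaps that for this large-subunit protein on the opposite strand in both species (MRPL49, GRCh38 chr11:65122183-65127371, + strand; Mrpl49, GRCm38 chr19:6053622-6057785, − strand). Mrpl49 was at 29.4, 28.2 and 28.4 FPKM in WT, 28.9 and 33.4 in Hrd1 KO and 17.1, 36.2 and 35.5 in Sel1L KO. The low value was in library 1 labelled Sel1L KO, in which Syvn1 was at 118. In HEK293T, SYVN1 was 25.9 to 28.9 in SEL1L KO and 16.7 to 16.95 in WT, and MRPL49 overlapped between these groups. Reads from the stretch that the 2 genes share cannot be told apart without strand, and the extent of that stretch was not measured.

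The genes that build and run the mitochondrial ribosome were read from fixed lists. In HEK293T 0 genes of these lists were called or passed the unadjusted threshold in a comparison with WT in the fit without the block. The lists comprised 5 subunits under other symbols, 28 factors of ribosome assembly and ribosomal RNA modification, 15 translation factors, 15 genes of mitochondrial DNA transcription and RNA processing and 9 of 10 regulators of mitochondrial biogenesis that passed the filter. The list medians lay between −0.16 and 0.13. With the replicate number as a block, on values as deposited, 0 were called. At the unadjusted threshold MPV17L2 and SSBP1, picked after their values were seen, were then higher and PTCD3 lower for HRD1 KO, beside 2.56% of all genes higher and 3.56% lower, and PTCD3 was lower for SEL1L KO, beside 3.52%. PTCD3, a small-subunit protein under another symbol, had the largest difference among those named by rule, at 71.5, 164 and 145 FPKM in WT, 27.1, 93.0 and 112 in HRD1 KO and 47.4, 67.3 and 70.2 in SEL1L KO, and its difference for SEL1L KO was −0.98 ± 0.50 (limma, adjusted p = 1.00). PTCD3 was below WT within each number in both KO groups, and with the block its adjusted p by limma was 0.582 for HRD1 KO (unadjusted p = 0.00746) and 0.702 for SEL1L KO (unadjusted p = 0.00373). SSBP1, a mitochondrial single-stranded DNA binding protein, and MPV17L2, an assembly factor, were at 0.35 and 0.49 for HRD1 KO, and DDX28, an RNA helicase of assembly, was at 0.34 for SEL1L KO.

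In BAT 0 genes of these lists were called for Hrd1 KO or Sel1L KO at an adjusted p under 0.01 on either scale. For Hrd1 KO, where the all-gene median was 0.42 as deposited and −0.02 scaled, the median was −0.10 as deposited and −0.55 scaled over the 5 subunits under other symbols, −0.12 and −0.56 over 14 translation factors, 0.33 and −0.12 over 28 assembly factors, 0.13 and −0.32 over 14 genes of transcription and RNA processing and 0.26 and −0.19 over 10 regulators. At the unadjusted threshold 4 of the 5 subunits and 8 of the 14 translation factors were lower after scaling, beside 10.8% of all genes. So were 5 of the 14 genes of transcription and RNA processing, 4 of 28 assembly factors and 1 of the 10 regulators. Another 2 regulators were higher, beside 7.36% of all genes. Further sets were taken by patterns of gene symbols, so they need not match the true membership. The 12 mitochondrially encoded genes so found (13 in HEK293T) had medians of −0.60 and −1.05. The 37 genes named as nuclear subunits of respiratory complex I had −0.32 and −0.77 (34 lower unadjusted when scaled). The 84 genes named as cytosolic ribosomal proteins that passed the filter had 0.31 and −0.14. The members, at −0.03 and −0.48, lay between complex I and the cytosolic ribosome. For Sel1L KO the cytosolic ribosomal proteins had medians of 0.52 and 0.43, with 68 and 29 of 84 higher at the unadjusted threshold, beside 12.7% and 8.41% of all genes. Complex I had −0.19 and −0.29, with 10 and 12 of 37 lower, beside 5.08% and 7.95%, and the members had −0.05 and −0.15.

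Among the regulators, Nrf1 was at 4.60, 4.81 and 5.50 FPKM in WT, 12.6 and 10.7 in Hrd1 KO and 9.07, 8.45 and 6.27 in Sel1L KO. Every KO library was above WT, with a difference for Hrd1 KO of 1.21 ± 0.23 as deposited (limma, adjusted p = 0.0295) and 0.76 ± 0.23 scaled (limma, adjusted p = 0.144). Tfb2m, a transcription factor of mitochondrial DNA, was at 52.2, 44.9 and 50.6 in WT, 28.1 and 33.7 in Hrd1 KO and 33.1, 30.6 and 32.9 in Sel1L KO. All 5 KO libraries were below WT, with −0.67 ± 0.16 as deposited (limma, adjusted p = 0.0496) and −1.12 ± 0.20 scaled (limma, adjusted p = 0.0467) for Hrd1 KO, and −0.61 ± 0.14 for Sel1L KO (limma, adjusted p = 0.0845). Mettl15, a ribosomal RNA methyltransferase, was at 2.10, 3.28 and 2.80 in WT and 4.37, 7.79 and 5.84 in Sel1L KO, with 1.09 ± 0.27 (limma, adjusted p = 0.103). None of these passed the threshold of 0.01.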

How the data were processed

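Polyadenylated RNA of 17 libraries was read from both ends on 1 flow cell. Per the submitters' processing notes and the methods, reads were checked with FastQC 0.11.8, mapped with STAR 2.7.8a to GRCh38 (HEK293T) or GRCm38 (BAT) and quantified with RSEM 1.3.3. The deposited values are the authors' FPKM per gene and library, to 2 decimals. RSEM splits reads among genes by estimate, so that paralogs, pseudogenes and overlapping genes are uncertain. The authors' DESeq2 test ran on counts and was not repeated on FPKM. The number of reads is unknown from FPKM. The step that 1 fragment makes in low values put the deepest library 1.89 times above the shallowest in HEK293T (2637 genes) and 1.75 times in BAT (1402 genes).

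The moderated test of limma 3.58.1 (R 4.3.3), with a variance trend, was applied to log2(FPKM + 0.1), each file fitted with all its libraries and groups, for genes that reached 1 FPKM in 3 or more HEK293T (15796 genes) or 2 or more BAT libraries (12473 genes). P-values were two-sided and Benjamini-Hochberg adjusted over these genes, with thresholds of 0.05 (HEK293T) and 0.01 (BAT). Fold changes on this scale understate those of low genes. The procedure was tested on simulated data. Nothing says that HEK293T libraries of a group came from separate clones, so p-values there measure the spread between these samples. Same-numbered HEK293T libraries deviated together (correlation of deviations from the group means 0.216 to 0.485 over 9 pairs, against −0.396 to 0.0270 for other pairs), so the number was also used as a block. Gene positions came from GENCODE matched by gene ID (78 of 78 in each species), and promoters from RefSeq. Genes named in the text were the 5 highest and 5 lowest by moderated t in each comparison with WT, the 3 highest and 3 lowest in WT, MRPL37, which the study's screen named, the MRPS18 paralogs and, of the other lists, those past the threshold or the 2 with the largest t in a comparison. The members and lists were chosen with earlier results of these data known.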

Additional observations from a re-analysis of the deposited data

How the results depend on the processing

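Alternatives were median-ratio and quantile scaling, a pseudocount of 1 or 0.01, no filter, the replicate block and leaving out each library. Scaling to the nuclear sum and leaving out libraries after median-ratio scaling were chosen after seeing the data. In HEK293T the counts of members called and their medians kept their values within the spread between replicates under all of these. Leaving out 1 library gave medians of −0.04 to 0.11 for HRD1 KO, 0.01 to 0.11 for SEL1L KO and −0.07 to 0.10 between them, with 0 called. The block raised the calls over all genes from 9 to 25 for HRD1 KO, from 5 to 12 for SEL1L KO and from 0 to 2 between them, leaving out 1 library gave 2 to 18, 0 to 9 and 0 to 13, and no filter gave 9 for SEL1L KO. The block changed no call of a member at the adjusted threshold.

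In BAT the median for Hrd1 KO against WT was −0.03 as deposited, −0.48 after median-ratio scaling, −0.26 after quantile normalization and −0.48 with the replicate block and median-ratio scaling. Against Sel1L KO it was 0.05 as deposited, −0.30 after median-ratio scaling and −0.32 with the block as well. Leaving out 1 library as deposited gave −0.14 to 0.15 for Hrd1 KO (0.15 without its library 1), −0.12 to 0.07 for Sel1L KO and −0.06 to 0.19 between them. The count called for Hrd1 KO was 0 to 1 and became 1 without library 1 labelled Sel1L KO (Mrps6, 0.73). After median-ratio scaling, leaving out WT library 1, 2 or 3 gave −0.45, −0.44 and −0.52 for Hrd1 KO, leaving out its own library 1 or 2 gave −0.21 and −0.68, and leaving out library 1, 2 or 3 labelled Sel1L KO gave −0.49, −0.48 and −0.49. Against Sel1L KO the same settings gave −0.30, −0.30, −0.30, −0.07, −0.50, −0.32, −0.29 and −0.29. Calls over all genes for Hrd1 KO went from 46 to 5 with median-ratio scaling, 18 with quantile normalization, 1 without any of the WT libraries and 775 without library 1 labelled Sel1L KO. For Sel1L KO they went from 13 to 1 with either scaling, no filter or the block, and to 61 without that library. Between the KO groups they went from 5 to 14 with no filter and 1 to 8 with 1 library left out or a pseudocount of 1. The causes were not tested. Of 26 named differences in BAT, 7 changed sign with median-ratio scaling, 3 with quantile normalization and 1 with nuclear-sum scaling. BAT numbers did not pair the mice (correlation of deviations −0.0602 to 0.0774 over 7 pairs), and the block as deposited gave 0 members called and 5 calls over all genes for Hrd1 KO. With 2 libraries labelled Hrd1 KO, and absolute depth unknown, the size of that group's differences is loosely set.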
